A study of Mus musculus with 8 samples.

Results

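The genes described here are 34 genes of fatty acid oxidation and ketone body formation, measured by microarray in mouse liver with and without knockdown of Raly, whose product belongs to the hnRNP proteins, which bind RNA in the nucleus. They were chosen by gene name from the probes that are not controls, with 1 probe per gene, that of the highest mean signal over all arrays. All 34 were found, out of 14874 genes tested. By the compartment and step of their product, 20 were grouped as mitochondrial, 6 as peroxisomal, 2 as microsomal and 2 as ketone steps, and the remaining 4 as other genes regulated by PPARA. The shRaly group was 4 arrays of liver RNA from mice given an adenovirus with a short hairpin RNA against Raly. The control group was 4 arrays of liver RNA from mice given the matching control virus. All mice were of the bl6 strain, 12 weeks old and on chow diet, the dose was 2e+09 with no unit given, and liver RNA was taken on day 6. The virus was given to whole animals and the liver was not sorted into cell types, so fewer cells of a type and less RNA per cell cannot be told apart. The titles number the arrays and do not state that each is a different mouse, and a p-value therefore reflects only how far these arrays scatter, which may be technical.

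Fatty acids are used in the liver cell in several places. On the mitochondrial route an acyl-CoA synthetase activates the fatty acid, the carnitine shuttle carries it across the membranes, and a spiral of dehydrogenation, hydration, dehydrogenation and thiolysis cuts it into acetyl-CoA, with the electrons passed on by the electron transfer flavoproteins. Peroxisomes shorten very long and branched chains, and microsomal cytochromes P450 of the Cyp4a family oxidise the far (omega) end. In the fasted liver much of the acetyl-CoA becomes ketone bodies, and the nuclear receptor PPARA, with its partner RXR, switches on many of these genes by binding direct repeats of the letters AGGTCA spaced by 1 base.

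Such a repeat (AGGTCA, any 1 base, AGGTCA, with up to 2 mismatches and on either strand) was looked for in the RefSeq promoters of the members (build GRCm38.p6, 250 bases before to 50 after each start). A promoter entry was matched for 26 of the 34 genes (29 promoters), and 4 of these promoters held a match, or 13.8%, beside 3.86% of the 32851 promoters in the table. They are shown because they are where the letters of the PPARA element occur near a start among these genes. Each is read 5′ to 3′ on the strand of the match, with the 13 letters of the match in capitals. The Fabp1 match lies on the minus strand at chr6:71199804-71199832 and has 1 mismatch, 67 bases before the start. The Etfa match is on the plus strand at chr9:55512300-55512328, that of Slc25a20 on the plus strand at chr9:108662134-108662162 and that of Acot4 on the minus strand at chr12:84038358-84038386, with 2 mismatches each. They lie 77 bases before, 7 after and 13 before their starts. A match describes letters and is neither a shown binding site nor a cause of a value given here. Many of these genes were already known to be switched on by PPARA. A larger share of matches among them is therefore no independent result, and the difference in share was not tested.
Fabp1: tcagatatAGGCCATAGGTCAgtgattgt
Etfa: ttgggagtAGGGCAAAGGTAAgggtgtgc
Slc25a20: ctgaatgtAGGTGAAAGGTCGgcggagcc
Acot4: gcacagacCGGCCAAAGGTCAtgcttcgg

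The arrays were alike in most measures of quality. Of the spots that are not controls, 45.9% were well above background on shRaly array 2, and between 49.1% and 51.1% on the other arrays. No spot was saturated, and log2 signals correlated between 0.9873 and 0.994 among shRaly arrays, 0.9913 and 0.995 among control arrays and 0.9872 and 0.9926 between the groups. All 8 arrays lay on 1 slide. The groups occupied different rows of it, so an effect of the row and one of the group cannot be told apart. Raly itself had 51.8%, 80.9%, 58.3% and 62.7% of the control mean on shRaly arrays 1 to 4, and 100.4%, 84.3%, 105% and 112% on control arrays 1 to 4. The highest shRaly array was thus just under the lowest control array (log2 fold change -0.68, SE 0.15, limma adjusted p = 0.0749; exact two-sided permutation p = 0.0286, the smallest that 4 against 4 arrays allow). Of the 10 hepatocyte markers listed for this work, 0 passed the threshold, and their median log2 fold change was -0.049. Albumin (Alb), the hepatocyte marker of highest signal, was at 61.8% to 96.2% on shRaly arrays, against 92.1% to 104% on control arrays (log2 -0.37, adjusted p = 0.225).

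Here and below, values per array are percentages of the geometric mean of the 4 control arrays, after scaling each array to its 75th percentile. A gene is said to rise or fall only if its limma p, adjusted by the Benjamini-Hochberg method over all 14874 genes, was under 0.05. By that rule 0 of the 34 genes rose and 0 fell, where 1.22% of all genes tested passed (0.309% higher and 0.914% lower). Adjusted p ran from 0.273 for Acot1 to 0.998 for Hadhb. At an unadjusted limma p under 0.05 there was 1 higher gene (Acot1) and 2 lower genes (Ehhadh and Acsl1), where 16.1% of all genes reached it. The 2 groups of arrays did not overlap for 1 of the 34, Acat1, which was lower. Over all genes tested the share without overlap was 10.4% (3.93% higher and 6.45% lower). The median log2 fold change was -0.11 (92.9% of control) over the 34 genes and -0.018 (98.7%) over all genes, and 25 of the 34 were below 0, where 53.8% of all genes were. That median leaned on single arrays: it was -0.028 without control array 1, -0.042 without control array 4, -0.059 without shRaly array 2 and -0.064 without shRaly array 3. By step it was -0.11 for mitochondrial, 0.0088 for peroxisomal, -0.12 for microsomal and -0.11 for ketone genes, and -0.13 for the other genes regulated by PPARA. With 1 array left out, the peroxisomal median ran from -0.093 (without control array 3) to 0.096 (without control array 4) and the mitochondrial one from -0.13 (without control array 3) to -0.052 (without control array 4). Each of the 47 probes for these genes was well above background on every one of the 8 arrays, so no value of the 34 genes rests on a floor.

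**Figure D1:**
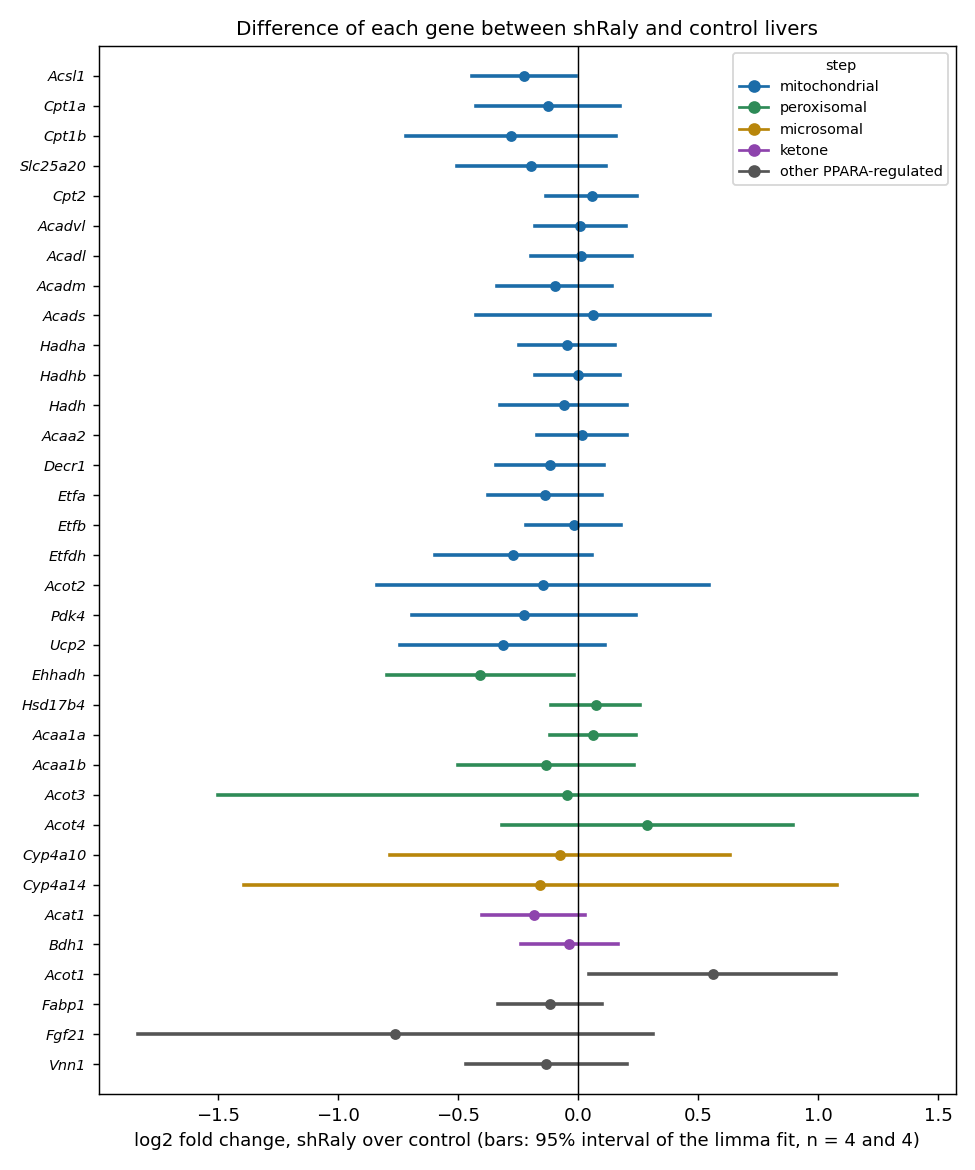
Log2 fold change, shRaly over control, for each of the 34 genes (points), with the 95% interval of the limma fit (bars; n = 4 and 4), coloured by step. Most mitochondrial genes have short bars around 0, and the bars of Acot3, Cyp4a14 and Fgf21 are the longest.

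None of the 5 genes that bring fatty acids into the mitochondrion passed the threshold, and 4 of the 5 had a log2 fold change below 0. Acsl1, which makes long-chain acyl-CoA, had 84.2%, 89.8%, 78.7% and 90.1% on shRaly arrays 1 to 4, against 89.6%, 110.6%, 102.7% and 98.2% on control arrays 1 to 4. The shRaly arrays were low except where 2 of them reached the lowest control array, by less than 1 percentage point (log2 -0.22, SE 0.096, adjusted p = 0.294 by limma). A further Acsl1 probe gave -0.32 (SE 0.10). Cpt1a, the carnitine palmitoyltransferase of the outer membrane and the main control point of the route in liver, had 73.1%, 105%, 89.9% and 103% on shRaly arrays, against 107%, 87.9%, 100.2% and 106% on control arrays. The groups overlapped, with 1 low shRaly array, and the 95% interval of the mean ran from 74.5% to 113% of control. Its log2 fold change was -0.12, or -0.015 without shRaly array 1. A further Cpt1a probe gave 0.046 (SE 0.18). Slc25a20, the carnitine-acylcarnitine carrier of the inner membrane, whose promoter match is printed above, had 77.6%, 81.5%, 100.4% and 91.8% on shRaly arrays and 113%, 91.2%, 83.6% and 116% on control arrays. These also overlapped (log2 -0.20, SE 0.14, adjusted p = 0.521). Cpt2, which hands the acyl group back to CoA inside the mitochondrion, was at 111%, 99.5%, 95.8% and 110.4% on shRaly arrays, and its 4 control arrays lay between 98.9% and 101%. Its mean was 104% of control, with an interval of 91.2% to 119%. Over these 5 genes, with Cpt1b, the median log2 fold change was -0.20.

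Cpt1b is the form of the outer-membrane enzyme used in muscle. Its signals were 119%, 68.5%, 78.3% and 72.6% on shRaly arrays and 114%, 113%, 78.3% and 99.4% on control arrays, with a wide overlap (log2 -0.28, SE 0.19, adjusted p = 0.515). Of 8 muscle and adipose markers, 5 did not pass the filter on dim probes, namely Ckm, Myl1, Tnnt3, Adipoq and Plin1. The median of the other 3 lay between -1.32 and 0.41 on shRaly arrays and between -0.70 and 1.25 on control arrays, on the log2 scale relative to the control mean. Their part in the Cpt1b values was not tested.

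The enzymes of the mitochondrial spiral were close to control and closely measured. Over the 9 genes the median was 99.9% of control, the log2 fold changes lay between -0.12 and 0.061, and all 9 of their 95% intervals lay within 1.5-fold of control in either direction, where 68.0% of all genes tested did so. Hadhb, the beta subunit of the trifunctional protein that completes the cycle for long chains, shows how tight the values were, with 100.2%, 100.1%, 102% and 97.9% on shRaly arrays, against 97.5%, 100.3%, 94.9% and 108% on control arrays. The shRaly arrays lay inside the range of the control arrays (interval of the mean 88.4% to 113%). Its alpha subunit Hadha had a mean of 96.8% of control (84.2% to 111%). Among the acyl-CoA dehydrogenases, which take the first step for successive chain lengths, the very-long-chain enzyme Acadvl stood at 101% (88.2% to 115%), the long-chain enzyme Acadl at 101% (87.2% to 117%) and the medium-chain enzyme Acadm at 93.5% (79.2% to 110.3%). For all of these the groups overlapped.

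The short-chain dehydrogenase Acads was the least precise of the spiral genes. It had 72.6%, 112%, 129% and 113% on shRaly arrays, against 135%, 78.8%, 88.3% and 107% on control arrays. The lowest value was in one group and the highest in the other, and the interval of the mean was 74.4% to 146%. Hadh, the 3-hydroxyacyl-CoA dehydrogenase for shorter chains, stood at 95.9% of control (79.9% to 115%), and Acaa2, the mitochondrial thiolase, at 101% (88.7% to 115%). Decr1, the dienoyl-CoA reductase needed for unsaturated chains, had 89.6%, 90.4%, 101% and 88.5% on shRaly arrays, against 102%, 100.7%, 87.5% and 111% on control arrays. Each group thus held 1 array at the other group's level (log2 -0.12, SE 0.099, adjusted p = 0.602). A further Decr1 probe gave 0.049 (SE 0.11).

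The electron transfer flavoproteins take electrons from the dehydrogenases. Etfa and Etfb, the 2 subunits, stood at 90.9% (77.0% to 107%) and 98.8% (86.1% to 113%) of control. Etfdh, the oxidoreductase that passes the electrons to the respiratory chain, had 64.6%, 97.4%, 91.1% and 82.7% on shRaly arrays and 87.1%, 97.3%, 104% and 114% on control arrays. The shRaly arrays were mostly the lower ones, with overlap (log2 -0.27, SE 0.14, adjusted p = 0.402). Without shRaly array 1, the lowest, the log2 fold change was -0.15.

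**Figure D2:**
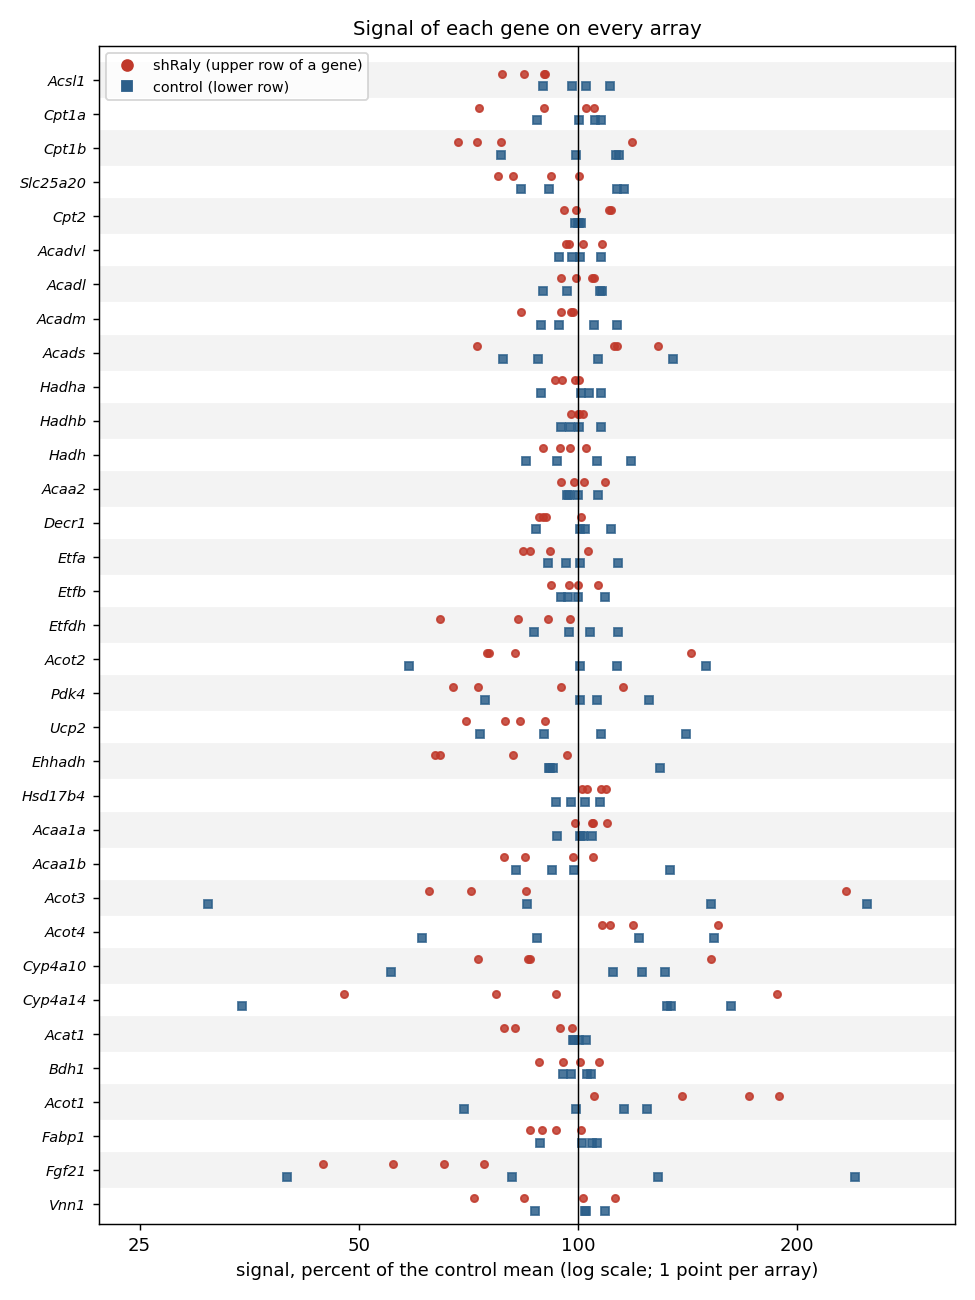
Signal of each of the 34 genes on every array, as a percentage of the control mean on a log axis (shRaly arrays as circles in the upper row of a gene, control arrays as squares in the lower row). The spiral genes other than Acads cluster around 100, the groups of Acat1 do not overlap, and Acot3 runs from 31.0 to 249 within the control arrays alone.

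The mitochondrial regulators overlapped between the groups as well. Pdk4, the kinase that turns off pyruvate dehydrogenase when fat is burned, had 94.7%, 67.5%, 73.0% and 115% on shRaly arrays and 101%, 106%, 125% and 74.6% on control arrays. Ucp2, an uncoupling-family carrier, had 83.3%, 70.3%, 79.3% and 90.2% on shRaly arrays and 141%, 108%, 73.4% and 89.8% on control arrays. Neither difference passed (log2 -0.22, adjusted p = 0.635, and -0.31, adjusted p = 0.456). Pdk4 was at -0.11 without shRaly array 2 and Ucp2 at -0.15 without control array 1. Ucp2 is expressed in macrophages too. Over the 7 measured Kupffer cell and macrophage markers the median difference was -0.018 on the log2 scale, with array medians of -0.17 to 0.098 on shRaly arrays and -0.38 to 0.20 on control arrays, and their part in the Ucp2 values was not tested.

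Of the 4 peroxisomal oxidation enzymes, Ehhadh had the lowest mean. This bifunctional enzyme does the hydration and second dehydrogenation, and is one of the classic PPARA targets of rodents. It had 64.7%, 96.6%, 63.6% and 81.4% on shRaly arrays, against 130%, 91.6%, 92.4% and 91.1% on control arrays. The control arrays lay close together apart from control 1, which was high, and 1 shRaly array lay among them. The log2 fold change was -0.41 (SE 0.17, adjusted p = 0.288, unadjusted p = 0.042 by limma), or -0.28 without control array 1. The bifunctional enzyme for branched chains, Hsd17b4, stood at 105% of control (92.5% to 119.7%) and the thiolase Acaa1a at 104% (92.1% to 118%). The second thiolase, Acaa1b, had 98.5%, 105%, 79.2% and 84.5% on shRaly arrays and 134%, 98.7%, 82.3% and 92.2% on control arrays, so that the groups overlapped around 1 high control array.

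Beyond the 34 genes, in a longer list of 21 further peroxisomal genes, 0 rose and 1 fell, and 20 did not pass; 19 of the 21 were below 0, with a median of -0.081. Over all genes tested 0.914% fell and 53.8% were below 0, and members of a list share arrays, so no test is given for the list. The gene that fell was Acox3, an acyl-CoA oxidase for branched chains. It had 57.3%, 65.5%, 59.0% and 60.2% on shRaly arrays, against 89.8%, 126%, 103% and 86.3% on control arrays, with a clear gap between the groups (log2 -0.73, SE 0.13, adjusted p = 0.0379). That call rests on the probe of highest signal: 2 further Acox3 probes gave -0.25 and -0.095, and the mean of the probes gave -0.36 (adjusted p = 0.196). The call was also lost on leaving out any one array other than shRaly array 2, with adjusted p between 0.0587 and 0.118, without the filter on dim probes (0.110) and in the fit with a replicate block (0.0832).

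Several acyl-CoA thioesterases and the omega-hydroxylases were among the genes of the 34 that scattered most between arrays of a group. The within-group SD of log2 signal was 0.18 at the median of the 34 genes and 0.19 at the median of all genes tested. It exceeded the 90th percentile of all genes (0.42) for 6 of the 34, namely Acot3 (1.099), Cyp4a14 (0.93), Fgf21 (0.81), Cyp4a10 (0.52), Acot2 (0.51) and Acot4 (0.44). The remaining 28 genes were below it, and 17 were below the median of all genes. Among the 28 was the thioesterase Acot1 (0.37), and Fgf21 is neither a thioesterase nor an omega-hydroxylase. The Acot genes release free fatty acid from acyl-CoA in the cytosol (Acot1), the mitochondrion (Acot2) and the peroxisome (Acot3 and Acot4), and their probes lie side by side on chromosome 12, between chr12:85334071 and chr12:85400511 on build mm9.

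Acot3 had 233%, 71.4%, 84.8% and 62.5% on shRaly arrays, against 249%, 85.1%, 31.0% and 152% on control arrays. In both groups array 1 was far above the others, the highest was 3.73 times the lowest among shRaly arrays and 8.03 times among control arrays, and the interval of the mean difference ran from 35.4% to 266% of control. A further Acot3 probe gave a log2 fold change of 0.45 (SE 0.71). Acot2 had 143%, 75.02%, 75.4% and 81.9% on shRaly arrays and 150%, 101%, 58.5% and 113% on control arrays, again with a single high shRaly array. Acot4 had 156%, 108%, 119% and 111% on shRaly arrays, against 154%, 87.8%, 61.1% and 121% on control arrays. The shRaly arrays were inside the control range but for the highest (log2 0.29, SE 0.27, adjusted p = 0.638), and without control array 3 the log2 fold change was 0.051.

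Acot1 had the highest mean of the 34 genes relative to control. It had 189%, 139%, 105% and 172% on shRaly arrays and 125%, 99.5%, 69.7% and 116% on control arrays. All but shRaly array 3 were above all control arrays (log2 0.56, SE 0.23, 147% of control, adjusted p = 0.273, unadjusted p = 0.036 by limma). The 4 Acot genes are close relatives, and the probes of any pair among Acot1 to Acot4 shared at most 25 of 60 bases. Probes were compared only with each other and may lie at different places in the transcripts. The count therefore cannot show whether a probe binds the transcript of a relative, which was not tested.

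Cyp4a14, which oxidises the omega end of fatty acids, had 188%, 77.2%, 47.7% and 93.3% on shRaly arrays, against 162%, 133%, 34.6% and 134% on control arrays. Control array 3 was far below the other control arrays. The interval of the mean was 38.1% to 211% of control, and without control array 3 the log2 fold change went to -0.67, against -0.16 with it. Cyp4a10, of the same family, had 86.0%, 85.3%, 72.9% and 152% on shRaly arrays and 123%, 112%, 55.3% and 132% on control arrays. The lowest array was again control 3 and the groups overlapped throughout (log2 -0.074, SE 0.31, adjusted p = 0.934).

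Members of the Cyp4a family are so alike in sequence that a probe may bind more than 1 transcript. The closest pair of probes on the array between Cyp4a10 and its neighbour Cyp4a31 shares 54 of 60 bases. Both are printed here, with the 6 differing bases in capitals, to show how little separates the transcripts. They lie on the plus strand of chromosome 4 on build mm9, at chr4:115198463-115198522 for Cyp4a10 and chr4:115243923-115243982 for Cyp4a31. The Cyp4a10 values above come from another probe. Shifted by 13 bases, that probe shares 44 bases with the Cyp4a31 probe of highest signal. At this shift 13 of the 60 bases of each probe lie outside the stretch compared, so the 44 are not out of 60. That Cyp4a31 probe had 91.6%, 91.0%, 77.8% and 146% on shRaly arrays and 128%, 115%, 54.5% and 125% on control arrays (log2 -0.021, SE 0.30), high and low on the same arrays as Cyp4a10 but for the order of control arrays 1 and 4. The Cyp4a10 probe printed here gave a log2 fold change of -0.18 (SE 0.30). Signals of the pair remain uncertain as to gene.
Cyp4a10: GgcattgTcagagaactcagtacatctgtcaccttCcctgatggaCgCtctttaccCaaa
Cyp4a31: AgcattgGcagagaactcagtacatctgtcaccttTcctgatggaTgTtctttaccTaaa

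**Figure D3:**
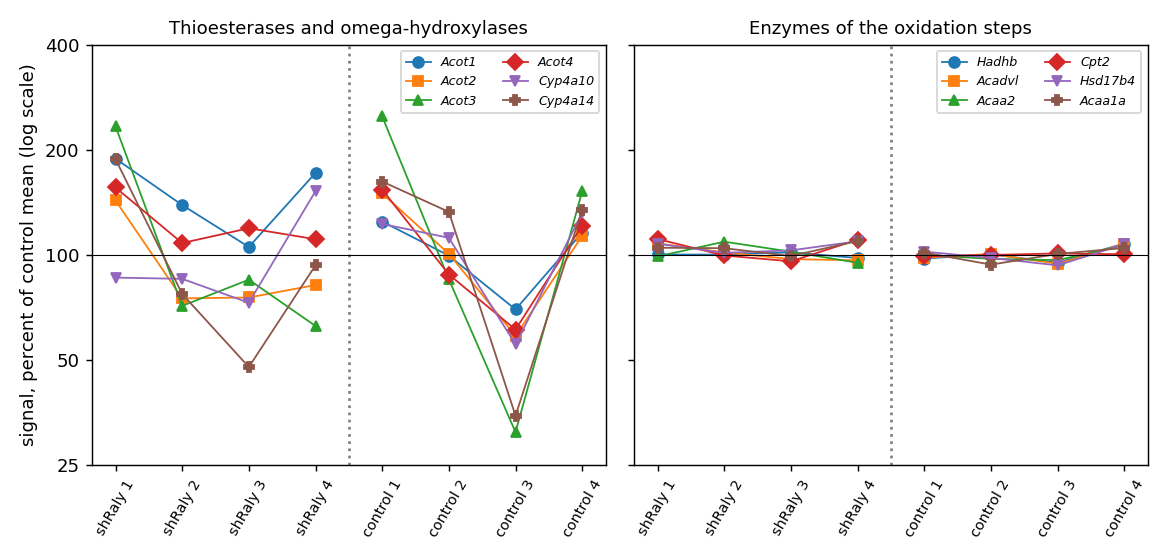
Signal on each array as a percentage of the control mean (log axis), for 6 thioesterase and omega-hydroxylase genes (left) and 6 enzymes of the oxidation steps (right); lines join the points of a gene and imply no order. The left-hand genes dip together on control array 3 and most are high on both arrays numbered 1, while the right-hand genes stay near 100 on every array.

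The same arrays were low or high for many of the 34 genes. Control array 3 was the lowest of the control arrays for 21 of the 34 (61.8%), where it was lowest for 23.3% of all genes tested. Control array 1 was the highest for 15 (44.1%, beside 26.6% of all genes) and control array 4 for 14 (41.2%, beside 32.2%). Among shRaly arrays, array 3 was the lowest for 14 genes (41.2%, beside 23.0%) and array 1 the highest for 13 (38.2%, beside 32.5%). Of these shares, those of control array 4 and shRaly array 1 were the closest to all genes, and they say little about the 34 genes. The median of the 34 genes, on the log2 scale relative to the control mean, was -0.019, -0.029, -0.11 and -0.091 on shRaly arrays 1 to 4, against 0.089, -0.0048, -0.14 and 0.091 on control arrays 1 to 4. The lowest of the 8 was a control array. The hour, feeding state and cage of each mouse are not given in the sources used here, and what sets these arrays apart was not tested.

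**Figure D4:**
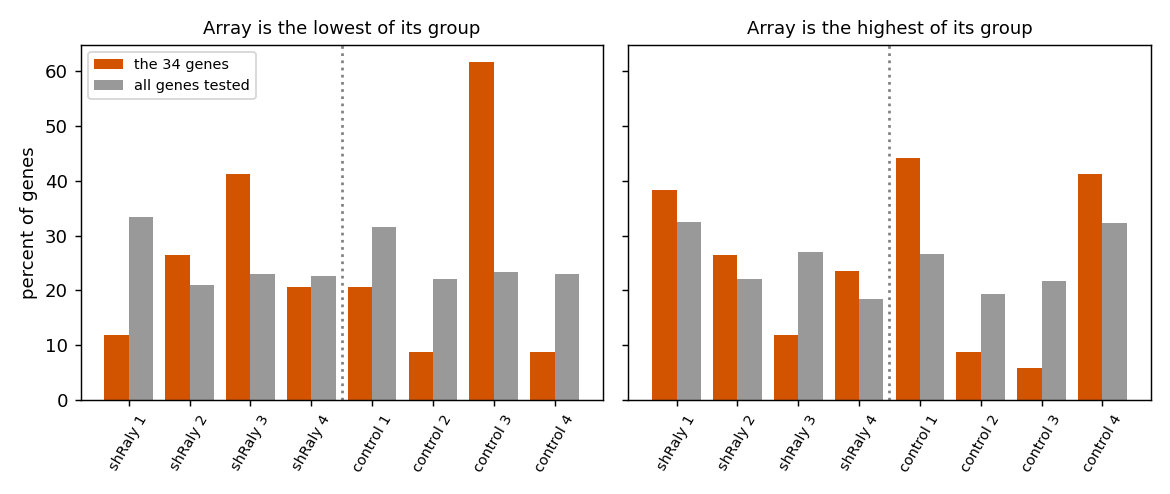
Percentage of genes for which an array was the lowest (left) or the highest (right) of its own group of 4, for the 34 genes (orange) and for all 14874 genes tested (grey). Control array 3 was the lowest for 61.8% of the 34 genes and 23.3% of all genes.

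Both ketone genes among the 34 were precisely measured. Acat1, the mitochondrial acetoacetyl-CoA thiolase, had 98.0%, 79.1%, 94.5% and 81.8% on shRaly arrays, against 103%, 98.7%, 98.4% and 100.3% on control arrays. Every shRaly array was below every control array, the closest by less than 1 percentage point, and the difference did not pass (log2 -0.18, SE 0.095, 88.0% of control, adjusted p = 0.386). Bdh1, which interconverts acetoacetate and 3-hydroxybutyrate, had a mean of 97.5% of control (84.9% to 112%). Of the other Bdh1 probes the brighter gave 0.014 (SE 0.088) and the dimmer -0.30 (SE 0.11), where the probe used gave -0.036.

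The rest of the ketone pathway came from a list of 8 further genes, of which 0 rose and 0 fell, with a median of -0.17. Oxct1 starts the use of ketone bodies in other tissues and is little expressed by hepatocytes. It had 146%, 134%, 124% and 123% on shRaly arrays, all above the 102%, 94.4%, 99.9% and 104% on control arrays (log2 0.39, SE 0.088, adjusted p = 0.0760).

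**Figure D5:**
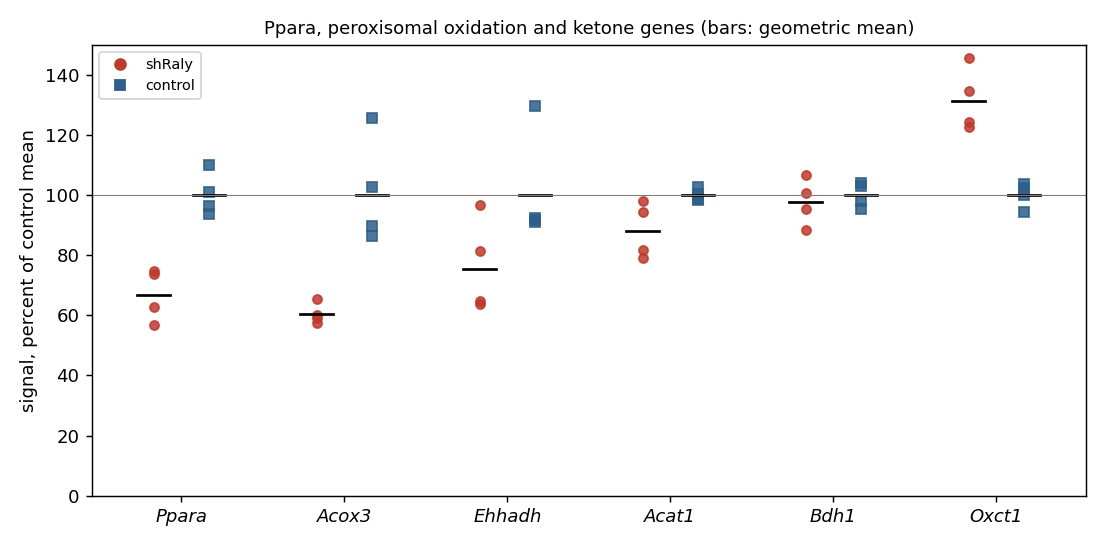
Signal on each array as a percentage of the control mean (shRaly circles left of control squares; bars are geometric means), for Ppara, 2 peroxisomal oxidation genes and 3 ketone genes. The groups do not overlap for Ppara, Acox3, Acat1 and Oxct1, and of the 6 genes drawn only Ppara and Acox3 passed the threshold by the limma test.

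The remaining 4 genes are regulated by PPARA and act in the cytosol or outside the cell. Besides Acot1, they were Fabp1, the liver fatty acid binding protein, at 92.1% of control (79.3% to 107%), and Vnn1, a pantetheinase, at 91.2% (72.3% to 115%). Fgf21, a hormone the liver secretes in fasting, had 65.5%, 74.4%, 44.7% and 55.7% on shRaly arrays, against 81.2%, 240.2%, 129% and 39.8% on control arrays. The shRaly arrays lay closer together than the control arrays, which held both the lowest and the highest values (log2 -0.76, SE 0.47, adjusted p = 0.470). The log2 fold change was -1.204 without control array 4 and -0.34 without control array 2.

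Ppara, the receptor itself, is not among the 34 genes. It had 74.8%, 73.6%, 56.8% and 62.8% on shRaly arrays, against 96.2%, 109.8%, 101% and 93.5% on control arrays, a gap without overlap (log2 -0.59, SE 0.11, adjusted p = 0.0498). Its 2 further probes gave -0.56 and -0.55. The call was lost on leaving out any one array other than shRaly array 2 (adjusted p between 0.0571 and 0.153), and with the mean of all probes (0.0959), quantile normalization (0.0946), no filter on dim probes (0.139) or the replicate block (0.119). Its coactivator Ppargc1a stood at 0.25 (SE 0.22, adjusted p = 0.625). Over all 7 lists of related pathway genes, 106 genes were tested, of which 0 rose, 2 fell (Ppara and Acox3) and 104 did not pass, with a median log2 fold change of -0.046. Over all genes tested 1.22% passed.

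In the lists where no gene passed, the gene of smallest p is given as a value. It was Sirt3, a mitochondrial deacetylase, among 18 further mitochondrial genes (log2 -0.17, adjusted p = 0.343), and Adh4, an alcohol dehydrogenase, among 12 further omega-oxidation genes (-0.32, adjusted p = 0.240). Among 21 measured genes of fatty acid uptake, activation and malonyl-CoA control it was Dbi, the acyl-CoA binding protein (-0.24, adjusted p = 0.260). Among 16 genes listed for this work as further PPARA targets it was G0s2, an inhibitor of the triglyceride lipase ATGL. Whether the genes of this list respond to PPARA in these livers was not tested, so their values are no measure of PPARA activity. G0s2 had 51.0%, 40.4%, 27.0% and 46.0% on shRaly arrays, all below the 177%, 116%, 61.1% and 80.1% on control arrays (log2 -1.32, SE 0.33, adjusted p = 0.0987). Most of the list lay the other way, with 12 of the 16 above 0 and a median of 0.17. Over all 14874 genes tested, 6876 were above 0. An unadjusted limma p under 0.05 was reached by 16.1% of all genes tested (953 higher and 1444 lower). In this list it was reached by 4 higher genes, Ccn2 (1.05), Tsc22d3 (0.85), Plin4 (0.80) and Angptl4 (0.37), and 3 lower genes, G0s2, Ucp3 (-0.47) and Plin2 (-0.46). Besides G0s2 these were named after their values were seen, and their adjusted p lay between 0.104 and 0.287.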

How the data were processed

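Mouse liver RNA in 8 samples (4 shRaly, 4 control, grouped by the sample titles) was labelled with Cy3 and hybridised to 8 single-colour Agilent arrays. The deposited scanner files hold intensity values per spot from Agilent Feature Extraction (11.5.1.1 per the file headers, 11.5.1.11 per the submitters' processing notes). The processed signal is background-subtracted and spatially detrended, with a surrogate where not above background, and per the file headers no step made the arrays comparable with each other. The deposited table of the whole series equalled the processed signal at 62976 of 62976 spots on every array.

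From log2 of this signal the 75th percentile of the array (7.86 to 8.19) was subtracted. Non-uniform and population-outlier spots (137 to 163 per array) were set to missing and spots of a probe averaged. Genes were named through the accession or symbol with a RefSeq table of assembly GRCm38.p6, and probe coordinates are those of the files (mm9); exon and UTR annotation was not analysed here. Genes entered the fit with a probe well above background on 4 or more of 8 arrays and 3 or more values per group. The probe of highest mean represented it. Of the 34 genes, 10 had 13 further probes past the filter, 4 of them of opposite sign. Groups were compared with limma 3.58.1 in R 4.3.3 (lmFit, eBayes), with Benjamini-Hochberg adjustment over all genes and a threshold of 0.05. The number of arrays limits the precision.

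Members and lists were chosen with earlier results of these data known. Named genes were all members, Raly, Ppara and Ppargc1a, the genes past the threshold in each pathway list (or the gene of smallest p), and the marker of highest mean in each cell type list; some items are not reported here. Alternatives were normexp background correction (offset 50), quantile or median scaling, other filters, the mean of probes, eBayes with trend and robust, the deposited table, the replicate number as a block, and leaving out each array. The labels do not say whether the replicate numbers pair the arrays. Over all genes, deviations of same-numbered arrays correlated at 0.0818, -0.0226, -0.074 and 0.137. A correlation over all genes cannot show whether same-numbered arrays share a condition that moves only some genes.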

Additional observations from a re-analysis of the deposited data

Results flagged for a closer look

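In 6 of 110 groups of 4 arrays examined, 1 array stood apart from the other arrays of its group by more of the group's range than Dixon's 95% criterion allows, a distance that chance gives in about 1 in 20 groups. Of these, 4 were among the 68 groups of the 34 genes. Decr1 was at 101% of the control mean on shRaly array 3, above the other shRaly arrays. Acot2 was at 143% on shRaly array 1, above the others. Ehhadh was at 130% on control array 1, above the others, and Cyp4a14 at 34.6% on control array 3, below the others. Outside the 34 genes, Alb was at 92.1% on control array 3 and Cd5l, a macrophage marker, at 71.0% on control array 1, each below the other control arrays.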

How the results depend on the processing

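The count of 0 of the 34 genes past the threshold was the same under all 17 alternatives, where the smallest adjusted p of any of them was 0.0898 (Acot1, with the replicate block). The deposited table equals the processed signal at every spot, so that alternative only repeats the reported fit. The number of genes past the threshold over the array, 182 in the reported setting, was 42 with no filter on dim probes, which tests more genes, and 46 with the replicate number as a block; with 1 array left out it ran from 17 (without control array 2) to 285 (without shRaly array 2). The replicate numbers share no stated origin, and for 1 of the 4 numbers the array of the same number was the closest match. The cause of these shifts in count was not tested.

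With a single array left out, the median log2 fold change of the 34 genes ran from -0.14 (without control array 3) to -0.028 (without control array 1), and that of the microsomal genes from -0.51 (without control array 3) to 0.099 (without shRaly array 3). Of 578 values of the 34 genes under alternatives, 39 changed sign, in 14 genes whose reported log2 fold change was at most 0.16 in size. The 578 include values that could not change sign. The deposited table, trend and robust, the replicate block and the other filters on dim probes leave the log2 fold changes of these genes as they were. With normexp, Cpt2 was at -0.014, Acadvl at -0.029, Acadl at -0.037 and Acaa2 at -0.057. With median scaling, Acadvl was at -0.018, Acadl at -0.014 and Acaa2 at -0.012. With quantile normalization, Hadhb was at 0.061 and Bdh1 at 0.027, and with the mean of probes Acot3 was at 0.20. With 1 array left out, the ranges that cross 0 were -0.024 to 0.044 for Acadvl, -0.040 to 0.050 for Acadl, -0.053 to 0.24 for Acads, -0.026 to 0.035 for Hadhb, -0.14 to 0.021 for Hadh, -0.021 to 0.046 for Acaa2, -0.054 to 0.023 for Etfb, -0.41 to 0.046 for Acot2, -0.23 to 0.0060 for Acaa1b, -0.61 to 0.39 for Acot3, -0.36 to 0.058 for Cyp4a10, -0.67 to 0.15 for Cyp4a14, -0.079 to 0.011 for Bdh1, -0.038 to 0.19 for Cd5l and -0.47 to 0.26 for Spp1. The cause of these sign changes was not tested. Raly, not past the threshold as reported, passed it with normexp (adjusted p = 0.0111), with trend and robust (0.0383) and without shRaly array 2 (0.0297).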

Other observations

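Lpin1, a coactivator of PPARA and a phosphatidate phosphatase, is given after its values were seen. It had 154%, 266%, 252% and 438% of the control mean on shRaly arrays, against 128%, 84.0%, 54.5% and 170% on control arrays, with 1 shRaly array inside the control range (log2 fold change 1.38, SE 0.39, limma adjusted p = 0.137).

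The marker lists of other liver cells had 0 genes past the threshold in each. Their median log2 fold changes were -0.13 for 8 endothelial markers (Clec4g -0.27), -0.20 for 8 stellate cell and fibroblast markers (Dcn 0.092), -0.25 for 8 lymphocyte markers (Cd4 -0.75), 0.40 for 5 neutrophil markers (S100a9 0.40) and -0.12 for 5 cholangiocyte markers (Spp1 -0.12). The gene in brackets is the marker of highest signal and need not stand for its list. Dcn was the 1 stellate cell and fibroblast marker above 0, with 7 below. Cd4 had the lowest value of the lymphocyte markers, of which 5 were below 0 and 3 above. Among 7 Kupffer cell and macrophage markers Cd5l was at 0.13, and the 3 measured muscle and adipose markers, with a median of -0.053, were Acta1 at 0.67, Myh6 at -0.053 and Cfd at -0.69 (adjusted p between 0.593 and 0.947; Acta1 and Myh6 were named after their values were seen).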
